A study of Rattus norvegicus with 8 samples.

Results

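The genes named here encode the proteasome, its regulators and its assembly factors. They are all gene symbols of the count table that begin with Psma, Psmb, Psmc or Psmd followed by digits, or with Psme, Psmf or Psmg followed by a digit. This rule found 49 of 28909 symbols, and 46 of the 49 passed the filter on low counts, as did 14309 symbols in all. The 3 that did not pass were Psma8, a core subunit known from testis, with 0 or 1 read per library, Psmb11, a core subunit known from thymus, with 0 to 4 reads, and Psme1, a subunit of an activator ring, with 1 to 4 reads. The rule also took in Psmc3ip, a meiotic recombination factor that carries a Psm name but is no part of the proteasome.

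Primary hippocampal neurons of Sprague-Dawley rat embryos were grown on porous filter inserts, so that somata stayed on the upper side and processes grew through to the lower side. The neurons received either PTX (picrotoxin, a blocker of the GABA-A receptor that raises network activity) for 48 h, from day in vitro (DIV) 18 to DIV 20, or a mock treatment. RNA from each side was depleted of ribosomal RNA and sequenced. There were 2 libraries for each of 4 conditions (somata control, somata PTX, processes control and processes PTX), and the labels do not say whether the 2 came from separate cultures, so all p-values measure the spread between these libraries, which may be technical. In a bulk extract, fewer cells of a type and less RNA per cell cannot be told apart.

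The proteasome degrades proteins tagged with ubiquitin, and in neurons it also works in dendrites and at synapses. Its 20S core is a barrel of alpha rings (Psma genes) and beta rings (Psmb genes). In the beta rings Psmb5, Psmb6 and Psmb7 carry the chymotrypsin-like, caspase-like and trypsin-like activities, and Psmb8, Psmb9 and Psmb10 are their interferon-inducible counterparts in the immunoproteasome. The 19S cap holds a ring of ATPases (Psmc genes) that unfold the substrate and non-ATPase subunits (Psmd genes) that receive and deubiquitinate it. Chaperones dedicated to the cap (Psmd5, Psmd9, Psmd10) or the core (Psmg genes) assist assembly and are not part of the finished particle.

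Promoter letters are shown for the catalytic subunits because constitutive proteasome genes are known targets of Nfe2l1, which binds the antioxidant response element (ARE), while the inducible genes are known to respond to interferon through elements such as the interferon-stimulated response element (ISRE). Windows from 250 bases before to 50 bases after the gene start were taken from RefSeq (GRCr8, not the assembly behind the counts) for 44 of the 49 genes. The letters TGACNNNGC (ARE-like, either strand) were found in 8 of the 44 windows (18.2%), against 12.1% of all 33469 promoter windows. The letters GAAANNGAAA (ISRE-like, either strand) were found in 7 of 44 (15.9%), against 3.92% of all windows. No window of these genes held both. The windows below are printed in the direction of the gene's own strand, with the motif in capitals.
Psmb5, ARE-like, starting 60 bases before the start, minus strand, chr15:32047421-32047449: cgtgaagctgTGACGTCGCggcgttgccc
Psmb6, ARE-like, starting 24 bases before the start, plus strand, chr10:55737854-55737882: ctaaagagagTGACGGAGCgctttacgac
Psmb8, ISRE-like on the opposite strand, starting 4 bases before the start, minus strand, chr20:4657016-4657045: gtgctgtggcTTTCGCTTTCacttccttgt
Psmb10, ISRE-like, starting 17 bases before the start, minus strand, chr19:50743290-50743319: agtggggggtGAAAGCGAAAgtaggaagcg
Psmb10, second ISRE-like match, starting 73 bases before the start, minus strand, chr19:50743346-50743375: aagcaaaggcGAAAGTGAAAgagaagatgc
The letters of neither motif were found in the windows of Psmb7 and Psmb9. The other ARE-like matches were in Psma3l (the table's symbol for Psma3), Psmb2, Psmd1, Psmd3, Psmd9 and Psme4, and the other ISRE-like matches in Psma4, Psmb3, Psmd7, Psme2 and Psmg4. A match is a description of these letters and not a measured binding site.

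Library totals ranged from 12290890 to 18455662 counts. Mitochondrial ribosomal RNA took 21.1% to 24.8% of the counts in somata and 64.9% to 68.3% in processes, so that genes outside the mitochondrial genome shared 9518079 to 11228343 counts per somata library and 4703151 to 5492640 per process library. A level is a CPM value (reads per 1e+06 reads of a library, scaled by TMM, edgeR's trimmed mean of M-values), and differences are given as log2 fold changes on that scale. The scale matters between compartments. Between the compartments of control cultures, the median over all 14309 genes was -0.05 on the log2 scale with TMM, -1.86 with library size alone and -0.25 with upper-quartile scaling. Directions between compartments are therefore directions relative to the bulk of the genes, and ratios of reads within a library, which no scaling touches, are given beside them.

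Proteasome genes were measured at moderate depth. The 49 genes together received 34578 to 44492 reads per somata library and 12193 to 14824 per process library, and a median tested member had 764 to 920 reads in somata and 228 to 289 in processes. Differences are therefore less precise in processes. As a share of the counts outside the mitochondrial genome, the 49 genes took 0.363% to 0.406% in somata and 0.240% to 0.270% in processes. On the CPM scale their sum was 1506 ± 51.6 in somata control, 1618 ± 26.2 in somata PTX, 1402 ± 59.4 in processes control and 1471 ± 26.9 in processes PTX libraries (SD, n = 2 each). The process sum was thus 93.1% of the somata sum in control and 90.9% in PTX cultures, but 67.7% and 66.3% as a share of counts outside the mitochondrial genome.

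The first question was how proteasome mRNAs divide between somata and processes. In control cultures 18 of the 46 tested genes differed between compartments at an adjusted p under 0.05 (edgeR quasi-likelihood test, Benjamini-Hochberg adjustment over all 14309 genes). In processes 7 cap subunits, 2 alpha subunits, the chaperones Psmd5 and Psmg2 and the activator Psme4 were lower, and the inducible catalytic subunits Psmb9 and Psmb10, the constitutive Psmb5, the cap chaperone Psmd10, the core chaperone Psmg1 and the activator Psme3 were higher. Those higher were 6 of 46 (13%), against 25.8% of all tested genes, and those lower 12 of 46 (26.1%), against 21.9% of all tested genes. With upper-quartile scaling the split was 2 higher (Psmb10 and Psmd10) and 21 lower, and with library size alone 0 higher and 45 lower, the 6 above turning to values from -1.41 (Psme3) to -0.71 (Psmd10). The median of all tested genes was then -0.25 and -1.86. These counts are therefore not read as a trait of the members. The differences were small. Psmd10 alone exceeded an absolute log2 fold change of 1, as 1 higher gene against 11.6% of all tested genes, and 0 members fell below -1, against 7.58%. The 46 log2 fold changes ran from -0.74 to 1.08 with a median of -0.03 and an interquartile range of 0.53, where that of all tested genes was 1.02.

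In PTX cultures, whose libraries are other than those of the control contrast, 18 of 46 again passed the threshold. Those higher in processes were 5 (10.9%), against 25.7% of all tested genes, and those lower were 13 (28.3%), against 24% of all tested genes. Upper-quartile scaling gave 3 higher and 20 lower, and library size alone 0 and 46, where the median of all tested genes was -0.23 and -1.87. None exceeded an absolute log2 fold change of 1 (0 higher against 11.4%, 0 lower against 9.67% of all tested genes). The members' median was -0.11 and their range -0.74 to 0.83. The control and PTX contrasts had the same sign for 43 of 46 members (93.5%), against 87.9% of all tested genes, and Spearman's rho between them was 0.89 across the 46 genes and 0.90 across all tested genes, which is a description, since genes of one library are not independent. The 13 of 46 genes called in both contrasts kept their direction, with Psmb5, Psmb9, Psmb10 and Psmg1 higher and Psma1, Psma5, Psmc2, Psmc4, Psmd3, Psmd5, Psmd6, Psmd8 and Psmd13 lower. Of all 14309 tested genes, 5658 were called in both, and 5655 of these kept their direction, so this is no trait of the members.

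**Figure D1:**
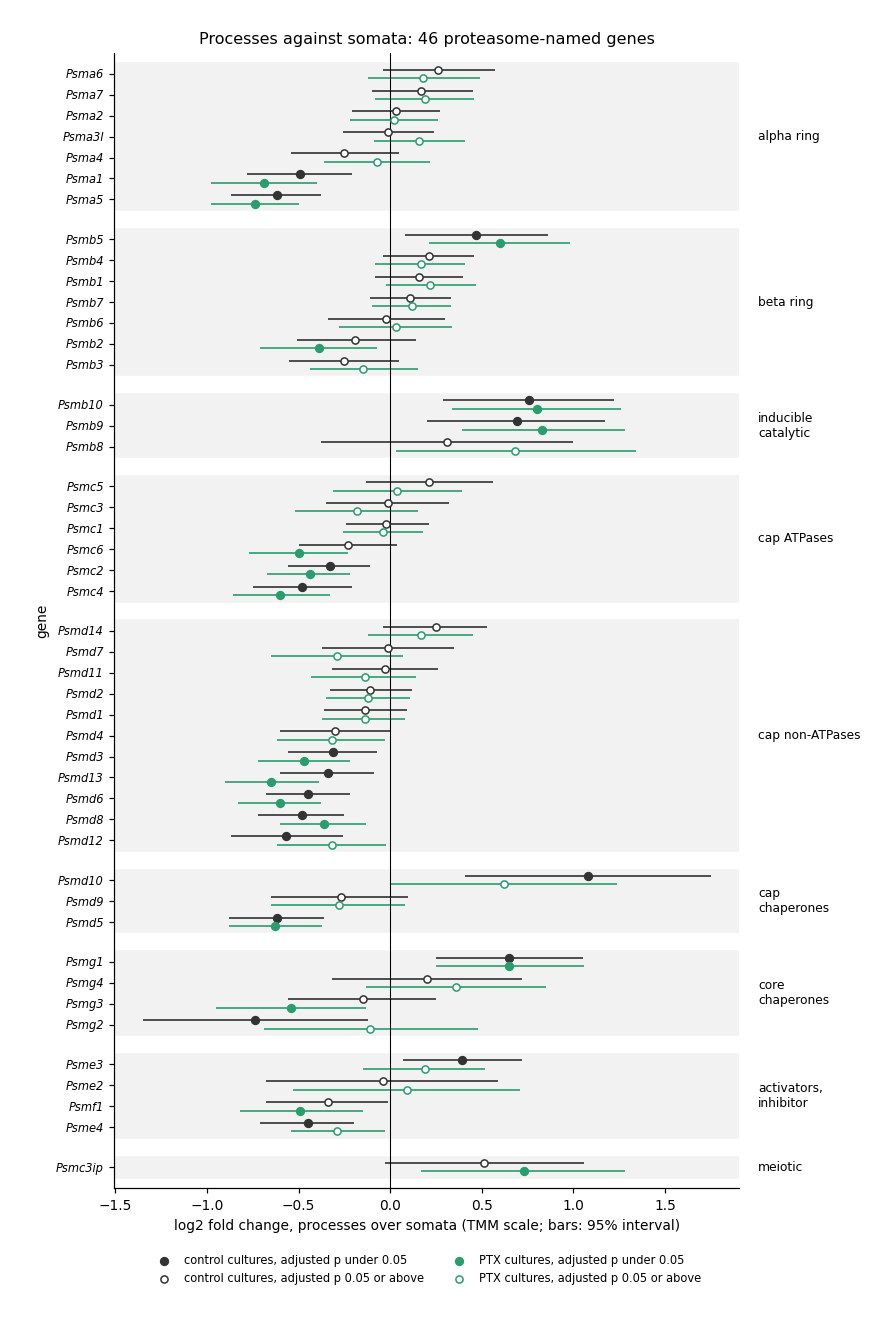
Log2 fold change of processes over somata (x axis, TMM scale, bars are 95% intervals) for the 46 tested genes (y axis), grouped by role, in control cultures (black) and PTX cultures (green). Filled points passed an adjusted p under 0.05, and most cap subunits lie left of 0 in both contrasts while the inducible catalytic subunits lie right of it.

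How many calls there were depended on single libraries. In the control contrast 8 members were called without replicate 1 of somata control, 7 without replicate 2 of somata control and 11 without replicate 1 of processes control. Psma5, Psmd5, Psmd6 and Psmd8 were called whichever of the 8 libraries was left out, and all 18 kept their sign each time. In the PTX contrast 10 members were called without replicate 1 of somata PTX and 12 without replicate 2 of processes PTX. There 9 of the 18 were called whichever library was left out, namely Psma1, Psma5, Psmc2, Psmc4, Psmc6, Psmd3, Psmd5, Psmd6 and Psmd13.

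The calls that ended were these. In the control contrast, leaving out replicate 1 of somata control ended those of Psmb5, Psmb9, Psmb10, Psmc2, Psmd3, Psmd13, Psme3, Psme4, Psmg1 and Psmg2. Leaving out replicate 2 of somata control ended those of Psma1, Psmb5, Psmb9, Psmc2, Psmc4, Psmd3, Psmd10, Psmd12, Psmd13, Psme3 and Psmg2. Without replicate 1 of processes control, Psmb5, Psmb9, Psmb10, Psmc4, Psmd13, Psme3, Psme4 and Psmg2 were no longer called, and without replicate 2, Psmb9, Psmc2, Psmd3, Psmd10, Psmd13, Psme3 and Psmg1. The PTX libraries, which share the estimate of spread, ended the calls of Psmb5 and Psmg2 when any one of the 4 was left out, and those of Psmd3 and Psme3 when either somata library was. In the PTX contrast, leaving out replicate 1 of somata PTX ended the calls of Psmb2, Psmb5, Psmb9, Psmb10, Psmc3ip, Psmd8, Psmf1 and Psmg3, and replicate 2 those of Psmb2, Psmf1, Psmg1 and Psmg3. Leaving out replicate 2 of processes PTX ended those of Psmb2, Psmb5, Psmb10, Psmc3ip, Psmd8, Psmf1, Psmg1 and Psmg3. That of Psmb2 ended also without replicate 1 of processes PTX or either somata control library.

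Among cap subunits with Psm symbols, those that passed the test were lower in processes. Of these 17 cap genes, 0 were higher and 7 lower in control cultures (against 25.8% and 21.9% of all tested genes), with 15 of 17 log2 fold changes negative and a median of -0.23, where that of all tested genes was -0.05. In PTX cultures 0 were higher and 7 lower (against 25.7% and 24%), again with 15 of 17 negative, and the median was -0.32. Of the cap genes 11.8% were thus positive in each contrast, against 47.1% and 47.3% of all tested genes. Upper-quartile scaling called 11 and 12 of them lower in the respective contrasts and library size alone all 17 in both, with 0 higher each time. The median of all tested genes was itself -0.25 and -0.23 with upper-quartile scaling, and -1.86 and -1.87 with library size alone. The distance of the cap median from the median of all tested genes was -0.18 in control cultures with TMM and with upper-quartile scaling, and -0.17 with library size alone. DESeq2, another tool, did not call Psmc2, Psmd3 and Psmd13 in control cultures, nor Psmd8 in PTX cultures.

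Among the 6 ATPases of the cap base, Psmc2 and Psmc4 were lower in processes in both contrasts, and Psmc6 in PTX cultures. Psmc4 measured 39.4 and 45.1 CPM in somata control and 29.0 and 31.7 CPM in processes control libraries. In the PTX libraries it measured 46.4 and 51.2 CPM in somata and 31.0 and 33.4 CPM in processes. The groups did not overlap in either contrast. Its log2 fold change was -0.48 ± 0.12 (SE, edgeR adjusted p = 0.00819) in control and -0.60 ± 0.12 (edgeR adjusted p = 0.00198) in PTX cultures. Without replicate 2 of somata control the former gave an adjusted p of 0.0686. The gene has 3 same-named copies or pseudogenes in RefSeq, so its reads are of less certain origin.

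Psmc2 gave -0.33 (edgeR adjusted p = 0.0902 without replicate 2 of processes control) and -0.44, and Psmc6 -0.23 and -0.50, in control and PTX cultures. The ATPases Psmc1, Psmc3 and Psmc5 passed the test in neither contrast. Psmc1 measured 50.7 and 53.5 CPM in somata control and 50.7 and 52.4 CPM in processes control. These ranges overlap.

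Among the 11 non-ATPase cap subunits, 5 were lower in control cultures (Psmd3, Psmd6, Psmd8, Psmd12 and Psmd13) and 4 in PTX cultures (Psmd3, Psmd6, Psmd8 and Psmd13). Psmd6, a subunit of the cap's lid, measured 49.6 and 51.8 CPM in somata control and 36.1 and 38.1 CPM in processes control. With PTX it measured 53.9 and 53.5 CPM in somata and 35.1 and 35.5 CPM in processes. Every process library lay below every somata library. The log2 fold changes were -0.45 ± 0.10 (edgeR adjusted p = 0.00443) and -0.60 ± 0.10 (edgeR adjusted p = 0.000678).

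Psmd13, another lid subunit, measured 47.1 and 51.4 CPM in somata control and 38.5 and 39.1 CPM in processes control. In PTX cultures its somata libraries had 51.0 and 58.5 CPM and its process libraries 36.2 and 33.7 CPM. The log2 fold change was -0.34 ± 0.12 (edgeR adjusted p = 0.0301, lost when any one of 4 libraries was left out, 0.154 without replicate 2 of somata control) in control cultures. In PTX cultures it was -0.65 ± 0.12 (edgeR adjusted p = 0.000928). Psmd12 gave -0.57 (edgeR adjusted p = 0.00661, 0.0607 without replicate 2 of somata control) in control cultures and -0.32, which did not pass, in PTX cultures. Psmd8 gave -0.48 and -0.36 (the latter with an edgeR adjusted p of 0.1002 without replicate 1 of somata PTX), and Psmd3 -0.31 (0.181 without replicate 2 of processes control) and -0.47.

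The remaining non-ATPase subunits passed the test in neither contrast. They include the scaffolds Psmd1 and Psmd2, the ubiquitin receptor Psmd4 and the deubiquitinase Psmd14. Psmd2 measured 117 and 122 CPM in somata control and 108 and 114 CPM in processes control, and its log2 fold change was -0.11. Psmd14 measured 37.8 and 40.4 CPM in somata control and 41.4 and 51.6 CPM in processes control. Its log2 fold change of 0.25 was the only positive one among the 11 in control cultures, and in PTX cultures it was 0.17.

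The 20S core divided differently. Of its 14 constitutive subunits, 1 was higher and 2 lower in control cultures (against 25.8% and 21.9% of all tested genes) and 1 higher and 3 lower in PTX cultures (against 25.7% and 24%), and the medians were 0.01 and 0.07. Upper-quartile scaling gave 0 higher and 5 lower in control and 0 and 3 in PTX cultures, and library size alone 0 and 14 in both. These scalings also moved the median of all tested genes, to -0.25 and -0.23, and to -1.86 and -1.87. Reads set against each other within a library need no scaling. Core genes made up 34.3% to 34.7% of all reads on the 49 genes in the 4 somata libraries and 37.6% to 39.8% in the 4 process libraries. Cap genes made up 51.5% to 53.1% in somata and 47.4% to 49.4% in processes. Neither pair of ranges overlaps, and the difference was not tested, since it is a score over the members. Within the core, the ranges were apart for the beta ring but not for the alpha ring. The constitutive beta ring took 16.7% to 17.9% in somata and 19.3% to 21.8% in processes. The alpha ring took 16.8% to 17.8% in somata and 17.4% to 18.3% in processes, which overlap.

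In the alpha ring Psma1 and Psma5 were lower in processes in both contrasts. Psma5 measured 33.9 and 32.7 CPM in somata control and 21.7 and 21.5 CPM in processes control. In the PTX libraries it measured 36.0 and 38.2 CPM in somata and 22.7 and 21.7 CPM in processes. Every process library lay below every somata library, and the log2 fold changes were -0.62 ± 0.11 (edgeR adjusted p = 0.000976) and -0.74 ± 0.11 (edgeR adjusted p = 0.000276), the smallest adjusted p of any member in each contrast.

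Psma1 measured 33.5 and 38.2 CPM in somata control and 25.3 and 25.7 CPM in processes control. With PTX it measured 37.8 and 34.2 CPM in somata and 24.3 and 20.4 CPM in processes. Its log2 fold changes were -0.49 (edgeR adjusted p = 0.00971, 0.0725 without replicate 2 of somata control) and -0.69 (edgeR adjusted p = 0.00136). The other 5 alpha subunits passed the test in neither contrast, with log2 fold changes from -0.25 (Psma4) to 0.26 (Psma6) in control cultures.

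In the beta ring Psmb5 was higher in processes, at the edge of the threshold. It measured 16.2 and 15.3 CPM in somata control and 26.2 and 17.4 CPM in processes control. In PTX cultures it measured 14.9 and 17.5 CPM in somata and 23.8 and 25.1 CPM in processes. The process libraries lay above the somata libraries within each contrast, replicate 2 of processes control only slightly so. The log2 fold change was 0.47 ± 0.18 (edgeR adjusted p = 0.0494) in control cultures, and 0.14 (adjusted p = 0.529) without replicate 1 of processes control. In the PTX libraries it was 0.60 ± 0.18 (edgeR adjusted p = 0.0159, 0.0998 without replicate 1 of somata PTX). Library size alone gave -1.35 and -1.23, and upper-quartile scaling 0.27 (adjusted p = 0.222) and 0.42 (adjusted p = 0.0626).

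The other catalytic subunits Psmb6 and Psmb7 passed in neither contrast. Psmb6 gave -0.02 and 0.03, and Psmb7 0.11 and 0.12. Psmb6 measured 13.5 and 15.6 CPM in somata control and 13.3 and 15.4 CPM in processes control, which overlap. The structural Psmb2 gave -0.39 (edgeR adjusted p = 0.0442) in PTX cultures, a call that was lost when any one of 6 libraries was left out, with an adjusted p of 0.166 without replicate 1 of processes PTX. Psmb1, Psmb3 and Psmb4 gave 0.16, -0.25 and 0.21 in control cultures and were not called.

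The inducible catalytic subunits Psmb9 and Psmb10 were higher in processes on the TMM scale in both contrasts and lower with library size alone, and the ratio of their reads to those of their constitutive counterparts was also larger in process than in somata libraries within each contrast. Their read counts were low, with 37 to 63 reads of Psmb9 and 102 to 146 of Psmb10 per process library. Psmb9, the counterpart of Psmb6, measured 2.51 and 2.74 CPM in somata control and 4.13 and 4.35 CPM in processes control. With PTX it measured 3.27 and 3.77 CPM in somata and 6.20 and 6.33 CPM in processes.

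The groups did not overlap. DESeq2 did not call Psmb9 in control cultures. The log2 fold change of Psmb9 was 0.69 ± 0.22 (edgeR adjusted p = 0.0250) in control cultures, where leaving out any one of 4 libraries ended the call (0.115 without replicate 1 of somata control), as did upper-quartile scaling (0.48, adjusted p = 0.0863). In PTX cultures it was 0.83 ± 0.20 (edgeR adjusted p = 0.00578), or 0.0504 without replicate 1 of somata PTX. Library size alone gave -1.12 and -0.99 in the respective contrasts, against medians of all genes of -1.86 and -1.87.

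Psmb10, the counterpart of Psmb7, measured 6.67 and 8.93 CPM in somata control and 14.4 and 11.98 CPM in processes control. In the PTX libraries it measured 6.54 and 8.72 CPM in somata and 11.7 and 14.7 CPM in processes. Every process library lay above every somata library. The log2 fold changes were 0.76 ± 0.21 (edgeR adjusted p = 0.0130, 0.101 without replicate 1 of processes control) and 0.80 ± 0.21 (edgeR adjusted p = 0.00891, 0.0880 without replicate 2 of processes PTX). Library size alone gave -1.06 and -1.02.

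Psmb8, the counterpart of Psmb5, had 21 to 40 reads per process library. It measured 2.93 and 2.04 CPM in somata control and 3.68 and 2.47 CPM in processes control, which overlap, and gave 0.31 ± 0.31. With PTX it measured 2.77 and 2.24 CPM in somata and 4.59 and 3.52 CPM in processes, which do not overlap, and gave 0.68 ± 0.30 (edgeR adjusted p = 0.0774). At this depth the intervals of Psmb8 reached from -0.38 to 1 and from 0.03 to 1.34, so that a difference of the size seen for Psmb9 and Psmb10 lies inside both.

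**Figure D2:**
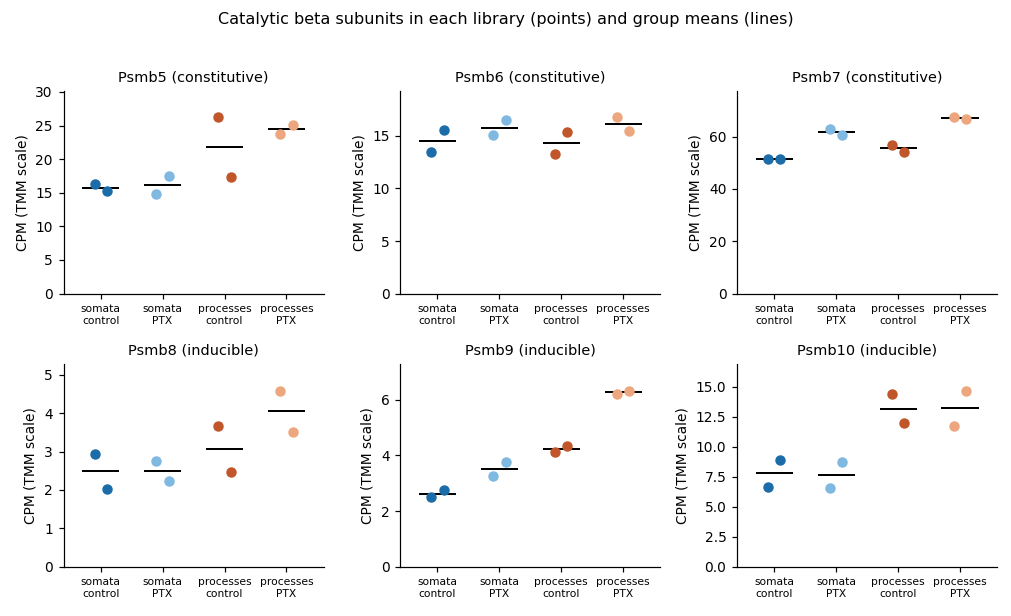
CPM after TMM scaling (y axes, each from 0) of the 3 constitutive and 3 inducible catalytic beta subunits in the 4 conditions (x axes), with 1 point per library and a line at the mean of 2. Psmb9 and Psmb10 lie higher in all process libraries than in all somata libraries, while Psmb6 overlaps between the control groups.

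Within a library the reads of an inducible gene can be set against those of its constitutive counterpart. Gene lengths were not used here, so the ratio itself is not a ratio of molecules, and only its change between libraries is read. Psmb9 reads were 18.6% and 17.6% of Psmb6 reads in somata control, and 31.1% and 28.2% in processes control. With PTX they were 21.7% and 22.9% in somata and 37.0% and 40.9% in processes.

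The 4 process libraries lay above the 4 somata libraries. Psmb10 reads were 12.9% and 17.4% of Psmb7 reads in somata control and 25.3% and 22.1% in processes control. With PTX they were 10.4% and 14.4% in somata and 17.4% and 22.1% in processes. These groups too were apart within control and within PTX cultures, though the lowest process library, with PTX, did not exceed the highest somata library, a control. Psmb8 reads were 12.8% to 18.6% of Psmb5 reads in somata and 14.0% to 19.3% in processes, which overlap. With 2 libraries against 2, an exact two-sided permutation test of such a ratio cannot go below p = 0.333.

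**Figure D3:**
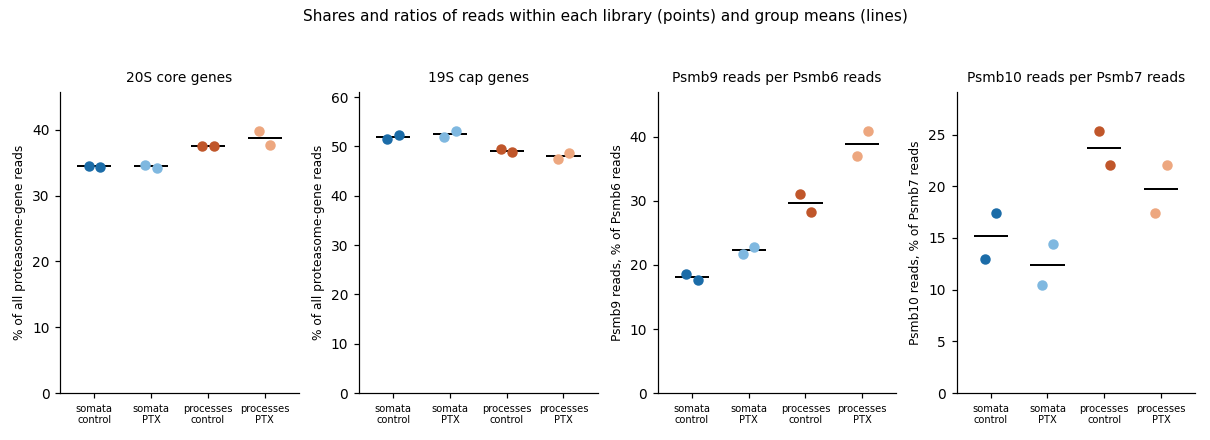
Reads of the 20S core genes and the 19S cap genes as a percent of all reads on the 49 genes, and reads of Psmb9 and Psmb10 as a percent of those of Psmb6 and Psmb7 (y axes, each from 0), in the 4 conditions (x axes), with 1 point per library and a line at the mean of 2. Core shares are 37.6% to 39.8% in processes against 34.3% to 34.7% in somata, and the Psmb9 ratio is highest in processes with PTX.

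Markers of other cell types and an interferon response list are given beside these subunits. Within each list that had tested genes, log2 fold changes went in both directions. The summed level of 8 astrocyte markers, all tested, was 3927 to 4342 CPM in somata control and 13110 to 14630 CPM in processes control libraries. With PTX it was 3038 to 4058 CPM in somata and 11170 to 12450 CPM in processes. In control cultures 4 of the 8 were higher in processes and 2 lower (against 25.8% and 21.9% of all tested genes). The 2 lower were Slc1a3 (-0.56) and Gja1 (-0.38). The difference of the sums lay in Gfap, the astrocyte filament protein, at 2.60 and the calcium-binding S100b at 2.16. Without both, singled out after their values were seen, the other 6 summed to 2004 to 2185 CPM in somata control and 2006 to 2071 CPM in processes control, which overlap. Of the interferon response list 11 of 14 genes were tested. In control cultures 2 were higher and 0 lower (against 25.8% and 21.9% of all tested genes). The list median was -0.05, as was that of all tested genes. The 2 were B2m, the light chain of MHC class I, higher by 2.85, and Mx2, an antiviral GTPase, by 1.54. With library size alone Mx2 gave -0.26. That list summed to 265 to 270 CPM in somata control and 1484 to 1636 CPM in processes control. B2m alone made up 201.9 to 209.9 CPM and 1405 to 1555 CPM of these sums. Without B2m, also singled out after its values were seen, the other 12 summed to 60.0 to 63.6 CPM and 79.4 to 81.0 CPM, which do not overlap. In PTX cultures 3 of the 11 tested genes were higher and 1 lower (against 25.7% and 24% of all tested genes). The list median there was 0.10, where that of all tested genes was -0.05. The 9 microglia markers in the table all stayed below the count filter, and their sum was 2.08 to 3.34 CPM in somata and 1.06 to 1.49 CPM in process libraries. The part of any of these cells in the level of Psmb9 and Psmb10 was not tested. Among 10 neuron markers 2 were higher and 6 lower in processes of control cultures (against 25.8% and 21.9% of all tested genes). Their sum was 2405 to 2751 CPM in somata control and 5552 to 5986 CPM in processes control, and without Map2, a dendritic microtubule protein, 1518 to 1766 CPM and 1028 to 1293 CPM. Of 8 oligodendrocyte markers 1 was higher and 1 lower in control cultures (against the same shares), with a median of -0.23.

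Assembly chaperones went in both directions. Psmd10 (gankyrin), a chaperone of the cap base, had the highest log2 fold change of the members in control cultures. It had 33 to 59 reads per process library. It measured 2.51 and 1.72 CPM in somata control and 3.68 and 5.29 CPM in processes control, which do not overlap. The log2 fold change was 1.08 ± 0.30 (edgeR adjusted p = 0.0132), or 0.80 (adjusted p = 0.126) without replicate 2 of processes control, and library size alone turned it to -0.71. In PTX cultures Psmd10 measured 3.67 and 2.96 CPM in somata and 4.25 and 5.93 CPM in processes, and its value of 0.62 did not pass.

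Psmd5, also a chaperone of the cap base, was lower in processes whichever library was left out. It measured 25.4 and 28.4 CPM in somata control and 17.1 and 17.97 CPM in processes control. With PTX it measured 34.3 and 32.8 CPM in somata and 21.5 and 21.9 CPM in processes. The log2 fold changes were -0.62 ± 0.12 (edgeR adjusted p = 0.00163) and -0.63 ± 0.12 (edgeR adjusted p = 0.00113). The last chaperone of the cap base, Psmd9, gave -0.27 and -0.28 and was not called.

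Of the core chaperones, which build the alpha ring as 2 heterodimers, the partners Psmg1 and Psmg2 differed in direction in control cultures. Psmg1 measured 8.08 and 9.52 CPM in somata control and 11.8 and 15.9 CPM in processes control. Psmg2 measured 5.61 and 5.88 CPM in somata control and 2.23 and 4.70 CPM in processes control. Psmg1 thus gave 0.65 ± 0.18 (edgeR adjusted p = 0.0131, 0.133 without replicate 2 of processes control, and -1.15 with library size alone). Psmg2 gave -0.74 ± 0.28 (edgeR adjusted p = 0.0485), a value that rests on replicate 1 of processes control with 20 reads and was -0.29 (adjusted p = 0.356) without it.

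In PTX cultures Psmg1 again gave 0.65 (edgeR adjusted p = 0.0131, 0.121 without replicate 2 of processes PTX), while Psmg2 gave -0.11 and was not called. Psmg3 gave -0.54 (edgeR adjusted p = 0.0328) there, and -0.35 (adjusted p = 0.236) without replicate 2 of processes PTX. Psmg4, its partner, gave 0.20 and 0.36 and was not called.

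Among activators and the inhibitor, 4 of 5 genes were tested. Psme4, which encodes a large single-chain activator, measured 89.6 and 81.2 CPM in somata control and 58.4 and 66.2 CPM in processes control. These do not overlap, and the log2 fold change was -0.45 ± 0.11 (edgeR adjusted p = 0.00773, 0.0662 without replicate 1 of somata control), while the value of -0.29 in PTX cultures did not pass. Psme3, the nuclear activator ring, gave 0.39 (edgeR adjusted p = 0.0482) in control cultures, lost when any one of 6 libraries was left out (0.270 without replicate 2 of somata control), and 0.19 in PTX cultures. The inhibitor Psmf1 gave -0.34 in control and -0.49 (edgeR adjusted p = 0.0199, 0.120 without replicate 2 of processes PTX) in PTX cultures. Psme2 had 16 to 21 reads per process library and gave -0.04 and 0.09.

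Psmc3ip, the meiotic factor, gave 0.51 in control cultures and 0.73 (edgeR adjusted p = 0.0322, 0.296 without replicate 2 of processes PTX) in PTX cultures. It had 41 to 68 reads per process library.

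Proteasome partners outside the Psm names differed too, relative to the bulk of the genes. Of 24 tested partners (cofactors, shuttle factors, deubiquitinases and regulators), 11 were higher and 3 lower in processes of control cultures (against 25.8% and 21.9% of all tested genes), with a median of 0.30, and 8 were higher and 4 lower in PTX cultures (against 25.7% and 24%), with a median of 0.22. With upper-quartile scaling these were 4 higher and 5 lower in control cultures, and with library size alone 0 and 24, where the median of -1.51 still lay 0.35 above that of all tested genes. The largest were Ubqln1, a shuttle factor that brings ubiquitinated proteins to the cap, Pomp, the maturation factor of the core, and Nfe2l1, the transcription factor of proteasome genes. Pomp measured 24.4 and 26.8 CPM in somata control and 53.3 and 52.1 CPM in processes control. The 3 log2 fold changes in control cultures were 1.39 (Ubqln1), 1.04 (Pomp) and 1.04 (Nfe2l1), with edgeR adjusted p-values of 7.61e-06, 2.70e-05 and 1.11e-05. With library size alone they were -0.41, -0.77 and -0.76.

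Other partners included true cap subunits. Sem1, a small cap subunit, gave 0.45 (edgeR adjusted p = 0.00654, 0.0827 with upper-quartile scaling) and 0.51 in processes against somata of control and PTX cultures, while Adrm1, a ubiquitin receptor of the cap, gave -0.12 in both and was not called. The cap-bound deubiquitinases went apart, with Usp14 at -0.44 (edgeR adjusted p = 0.00568) and Uchl5 at 0.54 (edgeR adjusted p = 0.0334, 0.148 with upper-quartile scaling) in control cultures. For comparison with another large complex of the cytosol, the 8 tested subunits of the chaperonin CCT had a median of -0.25 in control cultures. Of these subunits, 0 were higher and 2 lower (against 25.8% and 21.9% of all tested genes).

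The second question was whether 48 h of PTX changed proteasome mRNAs. Among the 46 tested members, 0 were called in somata, against 2.09% higher and 1.5% lower of all tested genes, and 0 in processes, against 1.64% higher and 2.1% lower of all tested genes (edgeR quasi-likelihood test, without a block). The likelihood ratio test of edgeR and DESeq2 also called 0. With the replicate number as a block, 2 were called in somata. The shares above do not come from that blocked fit and are no background for it. The treatment was visible elsewhere in the same libraries, where the activity-regulated genes Bdnf, Nptx2 and Plk2 rose by 2.05, 1.93 and 1.66 on the log2 scale in somata and by 1.89, 1.46 and 1.11 in processes.

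At an unadjusted p under 0.05, 3 members were higher in somata (Psmb7, Psmd5 and Psmd10, 6.52% of 46, against 8.27% of all tested genes) and 0 lower (against 7.3%). In processes 3 were higher (Psmb7, Psmb9 and Psmd5, against 7.67% of all tested genes) and 0 lower (against 8.88%). The smallest adjusted p was 0.163 in somata (Psmd5) and 0.201 in processes (Psmb7).

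The medians over the members were small and positive. The median log2 fold change was 0.10 in somata and 0.08 in processes, where that of all tested genes was -0.01. Positive were 35 of 46 (76.1%) in somata and 33 of 46 (71.7%) in processes, against 48.9% and 48.4% of all tested genes. Leaving out 1 library at a time gave medians of 0.07 to 0.15 in somata and 0.02 to 0.14 in processes, the lowest without replicate 1 of somata control and of processes control. In somata both PTX libraries lay above both control libraries for 22 members (47.8%), against 24% of all tested genes, and below them for 3, against 25%. In processes this held for 11 (23.9%), against 20.1%, and for 5, against 22.3% of all tested genes. Among the 17 cap genes 16 were positive in somata (median 0.12) and 10 in processes (median 0.01). Among the 14 core genes 11 were positive in somata (median 0.10) and 12 in processes (median 0.11).

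The fit without a replicate block bounds how large a change could have been. The 95% intervals lay within 1 log2 unit of 0 for 45 of 46 members in somata, the exception being Psmd10, and for 43 of 46 in processes, the exceptions being Psmb8, Psmb9 and Psmg2. The median half-width was 0.28 in somata and 0.31 in processes. The widest bounds were -0.79 (Psmc3ip) and 1.27 (Psmd10) in somata, and -0.72 (Psmg3) and 1.11 (Psmb8) in processes.

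**Figure D4:**
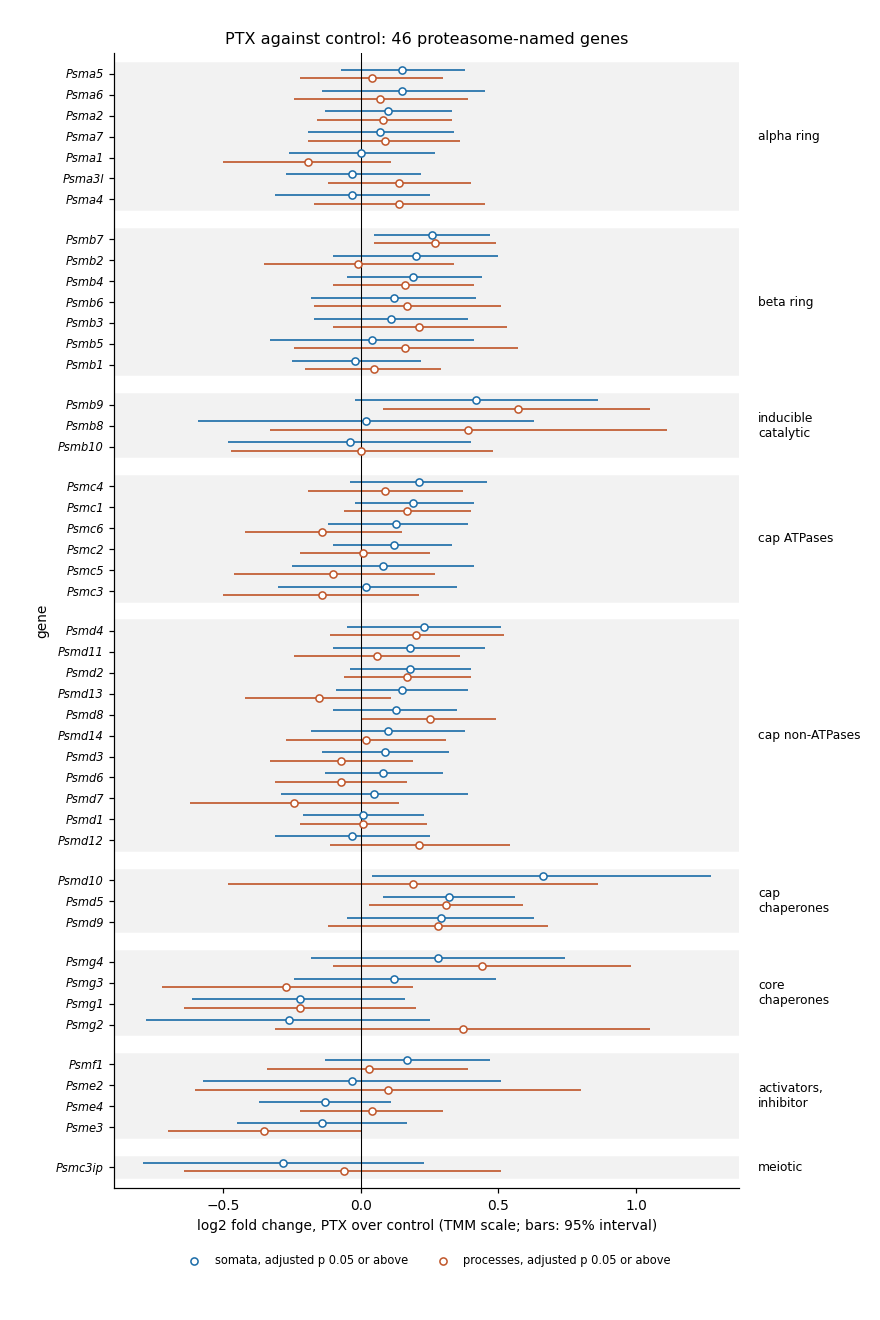
Log2 fold change of PTX over control (x axis, TMM scale, bars are 95% intervals) for the 46 tested genes (y axis), grouped by role, in somata (blue) and processes (orange). No point is filled, since no member passed an adjusted p under 0.05, and most points lie within 0.5 of 0.

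The members nearest to a change are given with their values. Psmb7, the trypsin-like subunit, measured 51.6 and 51.3 CPM in somata control and 62.7 and 60.5 CPM in somata PTX. In processes it measured 56.8 and 54.3 CPM in control and 67.3 and 66.6 CPM in PTX. The groups did not overlap in either compartment, and the log2 fold changes were 0.26 ± 0.10 (edgeR adjusted p = 0.1995) and 0.27 ± 0.10 (edgeR adjusted p = 0.201).

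Psmd5, with the values given above, gave 0.32 ± 0.11 in somata and 0.31 ± 0.13 in processes (edgeR adjusted p = 0.163 and 0.245), and its groups were apart in both. Psmb9 gave 0.42 ± 0.20 in somata and 0.57 ± 0.22 in processes (edgeR adjusted p = 0.349 and 0.222), also with groups apart in both. Psmd10 gave 0.66 ± 0.28 in somata (edgeR adjusted p = 0.277). In each of these cases the groups did not overlap, and none passed the correction. With the replicate number as a block, Psmb7 and Psmd5 did pass in somata (edgeR adjusted p = 0.0421 and 0.0266).

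At the other end, the lowest values in somata were those of Psmc3ip (-0.28), Psmg2 (-0.26) and Psmg1 (-0.22). In processes they were those of Psme3 (-0.35), Psmg3 (-0.27) and Psmd7 (-0.24). Psmg3 gave -0.08 without replicate 2 of processes PTX, and Psmd7 gave -0.01 without replicate 1 and -0.52 without replicate 2 of processes PTX. Psmc3ip in somata gave -0.07 without replicate 1 and -0.52 without replicate 2 of somata PTX. Psme3 measured 16.1 and 16.7 CPM in processes control and 11.7 and 14.0 CPM in processes PTX, which do not overlap (edgeR adjusted p = 0.307). The catalytic subunits not yet named gave 0.04 (Psmb5), 0.12 (Psmb6), 0.02 (Psmb8) and -0.04 (Psmb10) in somata, and 0.16, 0.17, 0.39 and 0.00 in processes.

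Among the partners, 0 of 24 were called in somata (against 2.09% higher and 1.5% lower of all tested genes). In processes 1 was called, as lower (against 1.64% higher and 2.1% lower of all tested genes). Ubqln2, another shuttle factor, measured 69.1 and 70.9 CPM in processes control and 46.7 and 43.0 CPM in processes PTX, a fall by 0.64 on the log2 scale (edgeR adjusted p = 0.00887). In somata it measured 57.8 and 59.0 CPM in control and 44.4 and 43.8 CPM in PTX, a value of -0.40 that narrowly did not pass (edgeR adjusted p = 0.0509). Its effect of PTX in processes minus that in somata was -0.24 ± 0.14 (SE) and was not called. None of the 8 CCT genes was called in either compartment.

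The third question was whether the response to PTX differed between compartments. The interaction, which is the effect of PTX in processes minus that in somata, was called for 0 of 46 members and for 0% of all 14309 genes. At an unadjusted p under 0.05 it was 0 of 46, against 4% of all tested genes. The smallest unadjusted member p was 0.0902 (Psmd13, -0.30 ± 0.16), and the adjusted p was 1 for every member in edgeR's quasi-likelihood test. The lowest values were -0.46 (Psmd10), -0.39 (Psmg3) and -0.30 (Psmd13), and the highest 0.63 (Psmg2), 0.37 (Psmb8) and 0.25 (Psmd12). Single libraries moved these values. Psmg2 gave 0.18 without replicate 1 of processes control, the library with 20 reads, and 1.26 without replicate 2. Psmb8 ranged from 0.09 (without replicate 1 of somata control) to 0.69 (without replicate 1 of processes control), and Psmd10 from -0.74 (without replicate 1 of somata control) to -0.18 (without replicate 2 of processes control). The ranges were -0.59 to -0.20 for Psmg3, -0.39 to -0.19 for Psmd13 and 0.12 to 0.38 for Psmd12, whichever library was left out. The median half-width of the unadjusted intervals was 0.42, so smaller estimated differences could not be told from 0 for a typical member. The adjusted test asked for more, and it left larger differences uncalled too. The neuron marker Slc17a7, with an interaction of 1.07 ± 0.19, was not called (edgeR adjusted p = 0.758).

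Origin of the reads is a limit for some members. In RefSeq (GRCr8) 19 of the 49 genes have 52 copies or pseudogenes named after them, 10 of them for Psmb3, 5 for Psma6 and 4 for Psme3, and Psme1, which had almost no reads, has 3. Reads that fit a gene and such a copy could have been split or dropped in the authors' counting, so values of these 19 genes are less certain. Psmb5, Psmb8, Psmb9, Psmb10, Psmd5, Psmd6, Psmd10 and Psmd13 have none. Psmb6 and Psmb7, against whose reads those of Psmb9 and Psmb10 were set, have 3 and 2, so these ratios share the limit. Psma5 has 1 and Psmd8 has 2.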

How the data were processed

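RNA from 8 libraries was analysed. Per the paper, the authors trimmed reads with Trimmomatic, aligned them with Subread subjunc to Rnor 6.0 with an Ensembl annotation, counted them with featureCounts and aggregated them to gene symbols. The submitters' processing notes name STAR as aligner instead, with featureCounts and edgeR. The deposited values are whole-number counts per symbol, without normalization. The authors' own PTX comparison tables (fold changes, likelihood ratios, p-values) were not used.

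The filter asked for over 20 reads in 2 libraries or more. TMM factors were computed and 1 coefficient per condition was fitted to all 8 libraries with edgeR 4.0.16 (glmQLFit and glmQLFTest, R 4.3.3), with Benjamini-Hochberg adjustment over all tested symbols and a threshold of 0.05. Standard errors and 95% intervals come from this fit. Promoter letters were read with Python 3.11.15. The tests were checked on simulated data. Alternatives were edgeR's likelihood ratio test, DESeq2 1.42.0, other scalings and filters, only the 4 libraries compared, a replicate block and each library left out. Library totals were 12290890 to 18455662 counts. Precision is limited mostly in processes, where 4703151 to 5492640 counts per library lay outside the mitochondrial genome.

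The genes and lists were chosen with earlier results of these data known. Named are the catalytic subunits and their counterparts, members called in a comparison (the 12 largest), the 3 highest and 3 lowest per comparison, and called partners. Gene lengths were not used here, so levels were not compared between genes. A further gene list is not reported here.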

Additional observations from a re-analysis of the deposited data

How the results depend on the processing

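Between compartments DESeq2 called 11 members in control and 13 in PTX cultures, against 18 in each. Those it did not call were Psmb5, Psmb9, Psmc2, Psmd3, Psmd13, Psme3 and Psmg2 in control cultures. In PTX cultures they were Psmb2, Psmc3ip, Psmd8, Psmf1 and Psmg3. A required absolute log2 fold change above 1 left 1 in control and 0 in PTX cultures. Library size alone called 45 and 46 members, all lower, and shifted the members' median to -1.84 and -1.94. It turned the log2 fold changes of Psmb5, Psmb7, Psmb8, Psmb9, Psmb10, Psmd10, Psmg1 and Psmc3ip to -1.35, -1.70, -1.50, -1.12, -1.06, -0.71, -1.15 and -1.29 in control cultures, and those of Psmb5, Psmb6, Psmb7, Psmb8, Psmb9, Psmb10, Psmg1 and Psmc3ip to -1.23, -1.80, -1.71, -1.14, -0.99, -1.02, -1.17 and -1.09 in PTX cultures. This shift is that of all genes, whose medians became -1.86 and -1.87. Upper-quartile scaling gave medians of -0.24 and -0.29, and requiring 10 reads in every library -0.10 in control cultures. Summed CPM in processes was 26.7% and 25.7% of that in somata with library size alone and 80.8% and 80.4% with upper-quartile scaling, and 67.7% and 66.3% as a share of counts outside the mitochondrial genome. Leaving out 1 library at a time gave 7 to 16 calls and medians of -0.11 to -0.03 in control cultures, 10 to 19 calls and medians of -0.13 to -0.05 in PTX cultures, and 0 calls for PTX. The median for PTX in somata was 0.17 with library size alone.

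The labels give replicate numbers that the sources do not explain. Differences between replicates correlated across genes with r of 0.54 for somata control and somata PTX, the conditions compared for PTX in somata. For the other pairs of conditions r was 0.27 to 0.37. With the replicate number as a block, 23 and 25 members were called between compartments, 2 for PTX in somata (Psmb7, 0.26, edgeR adjusted p = 0.0421, and Psmd5, 0.32, edgeR adjusted p = 0.0266), and 0 for PTX in processes and for the interaction. The shares of all tested genes given above come from the fit without a block and are no background for these counts.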
